A study of Mus musculus with 9 samples.

Results

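The genes described here encode chromatin remodellers, histone modifying enzymes, chromatin readers and enzymes of DNA methylation. They were chosen by symbol, from families such as Smarc, Arid, Chd, Hdac, Sirt, Kat, Kmt, Kdm, Prmt, Ezh, Cbx, Dnmt and Tet. The rule itself used no values, but it was set with earlier results of these data known. The same holds for the partner lists and gene pairs used below. The rule took 124 of the 14477 genes in the deposited table, all of them protein coding; 17 further annotated symbols that match it were not analysed here. Their RNA was measured in EGFP-positive sorted cells of the adult mouse dentate gyrus, a part of the hippocampus (DG, 5 libraries), and of the subventricular zone (SVZ, 4 libraries). All mice were of the strain B6.Cg-Tg(Nes-EGFP)1Yamm, in which a Nestin transgene marks precursor cells with EGFP, and were untreated and kept in standard housing. The labels give no age in days or weeks and no sex, and do not say if each library is an animal of its own or a pool. The p-values therefore rest on the spread among libraries, some of which may be technical.

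In the nucleus DNA is wound on histones, and the cell changes access to its genes in several ways. Remodellers such as SWI/SNF, ISWI and CHD proteins use ATP to slide or evict nucleosomes, acetyltransferases and methyltransferases mark histone tails, deacetylases and demethylases remove those marks, and reader proteins bind them. Polycomb and HP1 proteins and DNA methylation hold genes in a silent state, while Trithorax-type enzymes such as Kmt2a oppose Polycomb, and several of these enzymes are required for the production of neurons from adult precursor cells of the mouse.

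The libraries held 33627909 to 41164044 reads over the genes of the table in DG and 31126803 to 32528255 in SVZ, so that 1 read was worth 0.0243 to 0.0321 CPM, the reads of a gene per 1000000 reads of its library. Of the 124 chromatin genes, 123 exceeded 1 CPM in all 9 libraries, and the lowest read count of any of them in any library was 25. The 7 precursor markers, among them Nes and Sox2, summed to 481 to 566 CPM in DG and 789 to 1025 CPM in SVZ, and 5 of them were lower in DG. The sorts also differed in markers of other cells. Summed markers of dividing cells (12 of 12 lower in DG by limma) reached 1183 to 1639 CPM in DG and 4418 to 5173 CPM in SVZ. Neuroblast markers (10 of 10 lower in DG) reached 6032 to 9162 CPM in DG and 21823 to 25830 CPM in SVZ. Neurod1, which is not among those neuroblast markers, was higher in DG, with 8.86 to 9.42 log2 CPM in DG and 3.16 to 4.06 in SVZ. Dlx2 was lower, with -1.03 to 3.40 in DG and 6.16 to 6.68 in SVZ. Of 10 mature neuron markers, 4 were higher and 1 was lower in DG. They summed to 925 CPM in DG 3, 219 to 280 CPM in the other DG libraries and 178 to 213 CPM in SVZ. Astroglial markers (9 of 10 higher in DG) reached 17464 to 26328 CPM in DG and 2132 to 3887 CPM in SVZ, and oligodendrocyte lineage markers (9 of 10 higher) 4423 to 7177 CPM in DG and 1501 to 2735 CPM in SVZ. Vascular markers were higher in DG: the 12 pericyte and smooth muscle genes, all higher in DG, summed to 5686 to 11667 CPM in DG and 75 to 188 CPM in SVZ, and the 12 endothelial genes, also all higher, to 1202 to 2314 CPM in DG and 12 to 69 CPM in SVZ. The 8 fibroblast and meningeal genes, all higher in DG, summed to 737 to 1516 CPM in DG and 26 to 90 CPM in SVZ, and the ependymal markers (8 of 10 lower in DG) to 63 to 86 CPM in DG and 131 to 331 CPM in SVZ. None of the markers of these lists was at 0 reads in a library.

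The chromatin genes were mostly lower in DG cells than in SVZ cells. With limma and a Benjamini-Hochberg adjusted p under 0.05 over all genes, 83 of the 124 (66.9%) were lower in DG, where 33.7% of all tested genes were, and 11 (8.87%) were higher, where 32.9% of all genes were; 30 did not pass, and 66.6% of all genes were called in either direction. Every DG library lay below every SVZ library for 70 of them (28.3% of all genes) and above for 10 (29.7% of all genes). Their median log2 fold change, DG minus SVZ, was -0.67, against -0.07 over all genes. By more than 2-fold, 33 were lower and 5 were higher in DG, where 12.4% of all genes were lower and 22.7% were higher. Together they held 7903 to 9142 CPM of the reads in DG and 12765 to 14588 CPM in SVZ, which is 0.790% to 0.914% of reads in DG and 1.28% to 1.46% in SVZ. In such bulk samples fewer cells of a type and less RNA per cell cannot be told apart. Dividing-cell and neuroblast markers moved the same way and astroglial and vascular markers the opposite way, with the summed levels given above, and their part in the result was not tested.

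**Figure D1:**
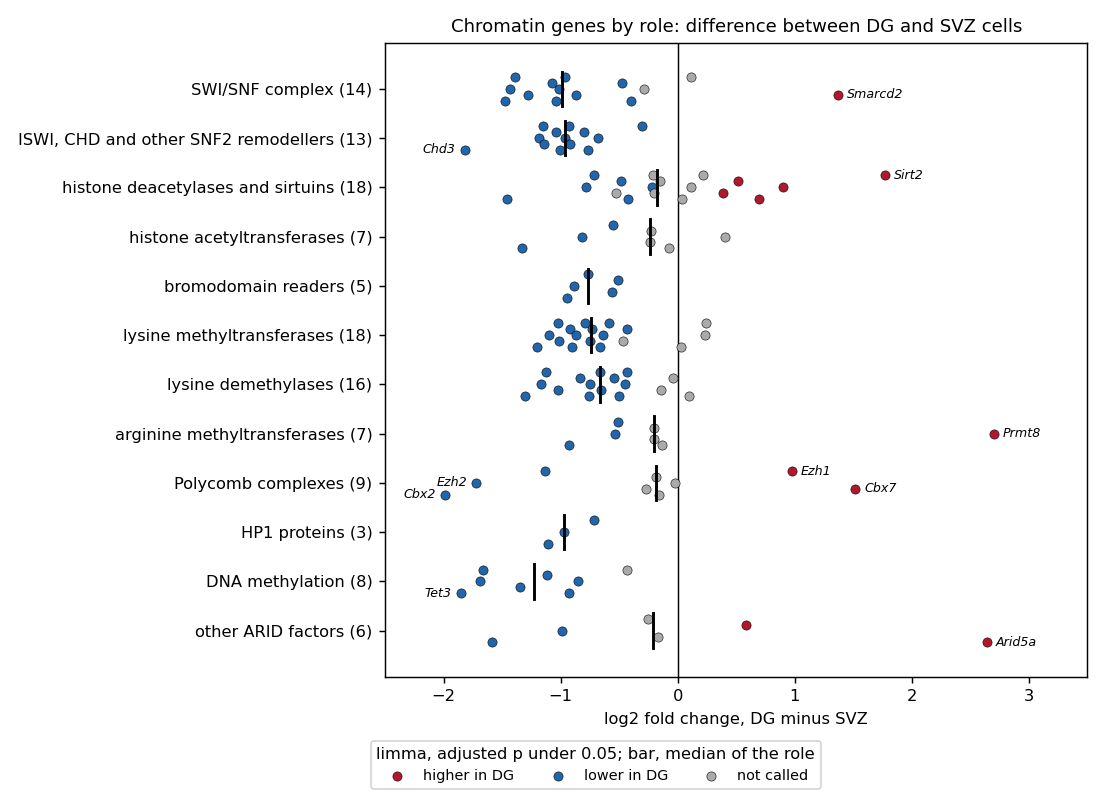
Each point is 1 of the 124 chromatin genes, placed by its log2 fold change (DG minus SVZ, horizontal axis) in the row of its role, with the number of genes in parentheses and a bar at the median of the role. Blue points (lower in DG) fill the left side in most roles, and the 11 red points (higher in DG) lie in 5 roles, the farthest being Prmt8 at 2.70 and Arid5a at 2.64.

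Among the 8 genes of DNA methylation, 7 (87.5%) were lower in DG, where 33.7% of all genes were. None was higher, where 32.9% of all genes were, and the median log2 fold change was -1.23. Uhrf1 (ENSMUSG00000001228, chr17:56303321-56323486 in mm10, plus strand) recruits the maintenance methyltransferase Dnmt1 (ENSMUSG00000004099, chr9:20907209-20959888, minus strand) to newly replicated DNA. Stretches around a RefSeq start of both are shown with those of Ezh2 and its paralogue Ezh1. For the first 3, which are lower in DG, a window that holds the letters described below was picked. Ezh1 is higher in DG. The stretches do not stand for all genes lower or higher in DG, whose shares with these letters are given below. Each runs from 220 bases before to 30 after a RefSeq start (GRCm38.p6), on the strand of the gene: chr17:56304093-56304342 plus for Uhrf1, chr9:20952594-20952843 minus for Dnmt1, chr6:47595001-47595250 minus for Ezh2 and chr11:101226434-101226683 minus for Ezh1. Capitals mark the letters TTTCCCGC, TTTCGCGC, TTTGCCGC or TTTGGCGC on either strand, the form of site that E2F factors of the cell cycle are known to bind.
Uhrf1: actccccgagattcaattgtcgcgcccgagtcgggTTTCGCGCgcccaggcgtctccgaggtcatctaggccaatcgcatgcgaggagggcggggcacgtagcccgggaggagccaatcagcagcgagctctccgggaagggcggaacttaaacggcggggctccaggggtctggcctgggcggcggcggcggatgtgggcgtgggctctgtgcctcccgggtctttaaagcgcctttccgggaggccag
Dnmt1: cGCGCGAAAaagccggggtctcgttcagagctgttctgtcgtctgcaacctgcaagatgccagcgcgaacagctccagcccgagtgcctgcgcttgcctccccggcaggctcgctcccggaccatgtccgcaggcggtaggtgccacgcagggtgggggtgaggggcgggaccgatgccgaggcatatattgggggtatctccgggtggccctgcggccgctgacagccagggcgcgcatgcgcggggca
Ezh2: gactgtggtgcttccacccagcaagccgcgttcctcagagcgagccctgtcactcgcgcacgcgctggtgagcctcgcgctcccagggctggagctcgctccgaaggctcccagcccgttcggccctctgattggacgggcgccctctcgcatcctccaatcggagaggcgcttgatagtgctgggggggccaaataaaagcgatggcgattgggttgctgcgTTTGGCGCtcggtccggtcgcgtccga
Ezh1: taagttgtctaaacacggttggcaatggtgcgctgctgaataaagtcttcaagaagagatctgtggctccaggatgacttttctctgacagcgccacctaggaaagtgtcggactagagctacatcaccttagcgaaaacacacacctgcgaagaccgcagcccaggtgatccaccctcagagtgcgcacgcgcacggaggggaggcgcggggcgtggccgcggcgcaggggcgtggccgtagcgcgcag
The match in Uhrf1 begins at -185 from the start, that in Ezh2 at 4 and the minus-strand match in Dnmt1 at -219; Dnmt1 has a further match at 34, past the printed stretch, the matches do not overlap each other, and the Ezh1 window has none. The other RefSeq windows of Uhrf1 (1) and Dnmt1 (2) had no match. Those windows lie around starts upstream of the printed stretches, which fall inside the annotated genes. Positions in Uhrf1 and Dnmt1 therefore count from the start used, and the stretches lie within the longer transcripts. Over windows of 300 bases, these letters were found in 11 of the 100 chromatin genes matched to the RefSeq table (11%), in 4.61% of the 10834 matched genes of the deposited table and in 2.6% of all 27025 RefSeq genes. They were in 7 of the 64 matched chromatin genes lower in DG (10.9%) and in 1 of the 11 higher in DG (9.09%), against 6.99% of all matched genes lower in DG and 2.81% of those higher. Each of these forms holds the letters CG. The median count of CG per window was 28 for chromatin genes, 22 for genes of the table and 8 for all RefSeq genes. It was 30 for chromatin genes lower in DG and 22 for those higher, against 23 and 19 for all genes of the table. The part of CG content in these shares was not tested. A match describes letters and is not a site shown to be bound.

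On the log2 CPM scale, Uhrf1 had 6.87, 7.01, 6.57, 7.12 and 7.15 in the DG libraries and 8.71, 8.78, 8.54 and 8.51 in the SVZ libraries. Dnmt1 had 8.18, 8.30, 8.07, 8.25 and 8.25 in DG and 9.81, 9.64, 9.55 and 9.24 in SVZ. For both genes all DG libraries were below all SVZ libraries, by 3.23-fold for Uhrf1 (log2 fold change -1.69, SE 0.12, limma adjusted p = 6.72e-07) and by 2.55-fold for Dnmt1 (-1.35, SE 0.11, adjusted p = 1.54e-06). Dnmt3a, a de novo methyltransferase that is required for postnatal neurogenesis in the mouse, had 5.81, 5.98, 5.76, 5.60 and 5.34 in DG and 7.52, 7.27, 7.17 and 7.46 in SVZ. The groups were again apart, with a log2 fold change of -1.66 (SE 0.13, adjusted p = 1.26e-06). The other de novo enzyme, Dnmt3b, was low in both tissues, at 1.54 ± 0.37 log2 CPM in DG and 1.97 ± 0.66 in SVZ (SD, n = 5 and n = 4), and did not pass (log2 fold change -0.43, SE 0.32, adjusted p = 0.25). Dividing-cell markers, low in DG as given above, moved with Uhrf1 and Dnmt1, and their part in the result was not tested.

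The Tet genes encode the dioxygenases that oxidise 5-methylcytosine, and all 3 were lower in DG. Tet3 (ENSMUSG00000034832, chr6:83362373-83459084, minus strand) had 4.97, 5.04, 4.94, 4.75 and 4.19 log2 CPM in DG and 6.87, 6.31, 6.55 and 6.79 in SVZ, and Tet1 had 5.57, 5.92, 5.39, 5.67 and 5.18 in DG and 6.97, 6.21, 6.43 and 7.02 in SVZ. No DG library reached an SVZ library for either gene, and the fifth DG library was the lowest for both. Tet3 was 3.61-fold lower in DG (log2 fold change -1.85, SE 0.18, adjusted p = 5.87e-06) and Tet1 differed by -1.11 (SE 0.19, adjusted p = 0.000403). Tet2, with 5.52, 5.87, 5.69, 5.65 and 5.01 in DG and 6.68, 6.24, 6.39 and 6.61 in SVZ, had the smallest change of the 3 (-0.93, SE 0.17, adjusted p = 0.000493). The within-library ratio of Tet2 to Tet3 was higher in DG by 0.92 on the log2 scale, or 1.89-fold, by the exact test described with the paralogue ratios.

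Of the 9 Polycomb genes, 2 were higher in DG, 3 were lower and 4 did not pass; the shares of 22.2% higher and 33.3% lower lay near those of all genes (32.9% and 33.7%). Ezh2 (ENSMUSG00000029687, chr6:47530139-47595341, minus strand), the catalytic subunit of Polycomb repressive complex 2 (PRC2) that methylates lysine 27 of histone H3 and is prominent in dividing cells, had 4.50, 4.82, 4.69, 4.78 and 4.45 log2 CPM in DG and 6.34, 6.21, 6.12 and 6.80 in SVZ. Its paralogue Ezh1 (ENSMUSG00000006920, chr11:101191115-101226463, minus strand), which is known from resting and differentiated cells, had 6.97, 6.95, 7.24, 6.94 and 6.88 in DG and 6.03, 5.93, 5.89 and 6.24 in SVZ. The groups did not overlap for either gene and stood in opposite order. Ezh2 was 3.30-fold lower in DG (log2 fold change -1.72, SE 0.15, adjusted p = 2.11e-06), and Ezh1 was 1.96-fold higher (0.97, SE 0.11, adjusted p = 1.2e-05).

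Per kilobase of annotated exon, Ezh1 averaged 17.2 ± 1.77 CPM in DG and 8.77 ± 0.975 in SVZ, and Ezh2 3.77 ± 0.422 CPM in DG and 12.6 ± 2.83 in SVZ (SD, n = 5 and n = 4). On this scale Ezh1 exceeded Ezh2 in DG and Ezh2 exceeded Ezh1 in SVZ. Suz12 and Eed, the other core PRC2 subunits, were picked out after their values were seen. Suz12 was lower in DG, with 4.09 to 4.21 log2 CPM in DG and 4.93 to 5.85 in SVZ (log2 fold change -1.14, SE 0.18, adjusted p = 0.000188). Eed, with 4.45 to 4.79 in DG and 4.38 to 4.94 in SVZ, did not pass (-0.03, SE 0.13, adjusted p = 0.87).

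The Cbx proteins of PRC1 read methylated lysine 27. Cbx2 (ENSMUSG00000025577, chr11:119022962-119031270, plus strand) had 2.46, 2.35, 1.80, 1.70 and 1.89 log2 CPM in DG and 3.99, 4.31, 3.73 and 4.09 in SVZ, and Cbx7 had 3.28, 3.49, 2.87, 2.88 and 2.63 in DG and 0.59, 1.59, 1.57 and 2.30 in SVZ. Neither gene overlapped between the groups, and the SVZ libraries spread widely for Cbx7. Cbx2 was 3.98-fold lower in DG (log2 fold change -1.99, SE 0.21, adjusted p = 8.81e-06), the largest decrease of the 124 genes, and Cbx7 was 2.86-fold higher (1.52, SE 0.32, adjusted p = 0.00142). The 3 HP1 genes, whose proteins bind methylated lysine 9 of histone H3 in heterochromatin, were all lower in DG without overlap. Of all genes, 33.7% were lower and 28.3% lay below without overlap. Cbx1 had 6.36 to 6.64 log2 CPM in DG and 7.52 to 7.87 in SVZ (log2 fold change -1.11, adjusted p = 3.06e-06), Cbx3 differed by -0.97 (adjusted p = 6.92e-05) and Cbx5 by -0.72.

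**Figure D2:**
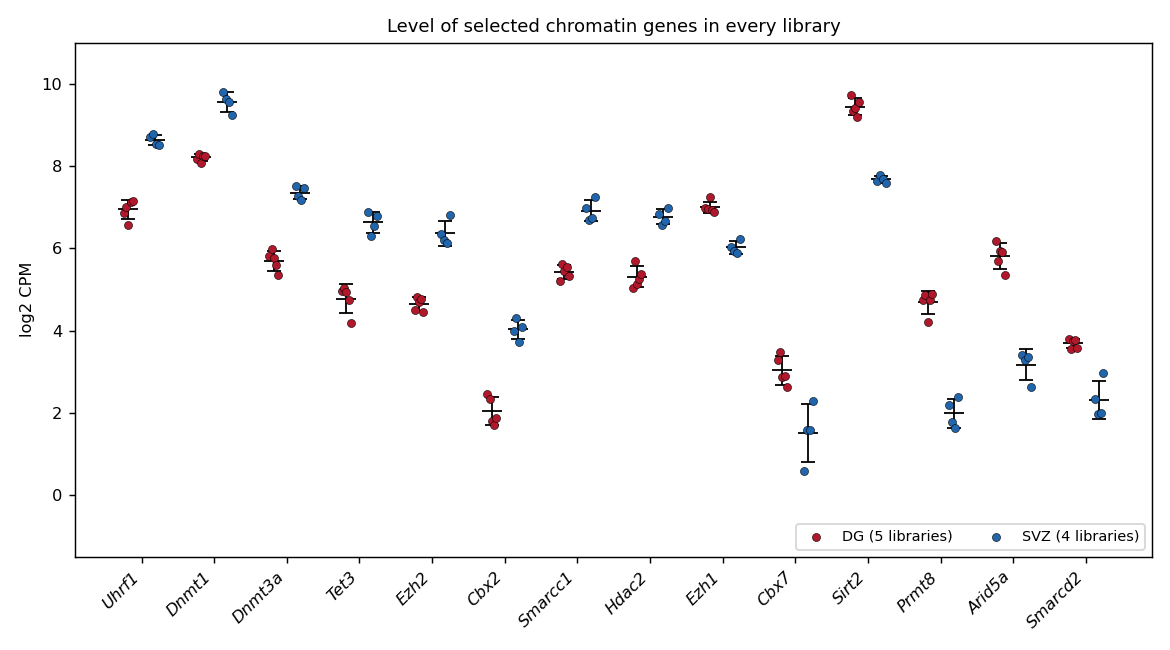
Levels of 14 chromatin genes in log2 CPM (vertical axis), with a point for each library (5 DG libraries in red on the left and 4 SVZ libraries in blue on the right of each gene) and a bar for the mean with its SD. Uhrf1 to Hdac2 lay lower in DG and Ezh1 to Smarcd2 higher, and none of these 14 genes overlapped between the tissues.

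All 13 remodellers of the ISWI, CHD and related SNF2 families were lower in DG, 11 of them without overlap. Of all genes, 33.7% were lower and 28.3% lay below without overlap. The median log2 fold change of the 13 was -0.96. Chd3 (ENSMUSG00000018474, chr11:69343273-69369406, minus strand), a motor of the NuRD complex, which couples remodelling to deacetylation, had 4.53, 4.13, 4.75, 4.16 and 3.44 log2 CPM in DG and 6.18, 6.09, 6.03 and 5.80 in SVZ. It was 3.53-fold lower in DG (log2 fold change -1.82, SE 0.23, adjusted p = 3.26e-05), with the fifth DG library lowest. Chd7, which is mutated in CHARGE syndrome in humans and acts in adult neurogenesis in the mouse, had 6.18, 6.32, 6.22, 6.44 and 5.77 in DG and 7.69, 7.15, 7.25 and 7.24 in SVZ (-1.15, SE 0.15, adjusted p = 4.91e-05). Smarca5, the main ISWI motor, was also lower, without overlap (-1.18, adjusted p = 2.96e-05). The calls of Smarca1 (log2 fold change -0.31) and Chd5 (-0.80) depended on single libraries: the limma adjusted p of Smarca1 was 0.0588 to 0.142 without any of DG 1, DG 3, DG 4, DG 5, SVZ 1, SVZ 2 or SVZ 4, and that of Chd5 was 0.0512 to 0.0799 without any of DG 1, DG 4, SVZ 1, SVZ 2 or SVZ 3.

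SWI/SNF, also called the BAF complex, exchanges subunits as precursor cells become neurons. Its 14 genes held 11 lower in DG (78.6%, against 33.7% of all genes), 1 higher (7.14%, against 32.9%) and 2 that did not pass. Their median log2 fold change was -0.99. Smarcc1, the core scaffold subunit BAF155, had 5.20, 5.61, 5.46, 5.54 and 5.34 log2 CPM in DG and 6.97, 6.69, 6.73 and 7.24 in SVZ, and Arid1a, a DNA-binding subunit of the canonical complex, had 7.13, 7.44, 7.40, 7.23 and 7.05 in DG and 8.91, 8.36, 8.61 and 8.87 in SVZ. Both stood apart between the tissues, with log2 fold changes of -1.48 for Smarcc1 (SE 0.13, adjusted p = 2.97e-06) and -1.43 for Arid1a (SE 0.13, adjusted p = 2.88e-06). Arid1b, its paralogue, differed by -1.39 (adjusted p = 7.47e-06).

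The 2 alternative ATPases of the complex behaved differently. Smarca4, or BRG1, had 7.18, 7.10, 6.95, 7.04 and 6.60 log2 CPM in DG and 8.15, 8.13, 8.06 and 7.72 in SVZ, and was 2.06-fold lower in DG (log2 fold change -1.04, SE 0.13, adjusted p = 3.7e-05). Smarca2, or BRM, had 6.95, 7.04, 7.09, 7.04 and 7.12 in DG and 7.04, 6.79, 6.84 and 7.08 in SVZ, so that the groups overlapped, and did not pass (0.11, SE 0.09, adjusted p = 0.292). Per kilobase of exon, Smarca4 averaged 19.6 ± 2.81 CPM in DG and 40.3 ± 5.21 in SVZ, and Smarca2 9.28 ± 0.407 CPM in DG and 8.63 ± 0.859 in SVZ (SD, n = 5 and n = 4). Among the alternative BAF60 subunits, Smarcd2, required for the maturation of granulocytes in the mouse, was the gene higher in DG, with 3.79, 3.55, 3.75, 3.78 and 3.58 in DG and 2.34, 1.97, 2.01 and 2.96 in SVZ (1.37, SE 0.21, adjusted p = 0.000154). Smarcd3 had 1.44 to 2.03 in DG and 2.83 to 3.21 in SVZ (-1.28, SE 0.19, adjusted p = 0.000112), but 48.2% of its exon length overlaps Chpf2 on the other strand, and without strand the reads of these genes cannot be told apart.

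Of the 18 histone deacetylases and sirtuins, 5 were higher in DG (27.8%, near the 32.9% of all genes), 6 were lower (33.3%, near the 33.7% of all genes) and 7 were not called. Sirt2 (ENSMUSG00000015149, chr7:28766735-28788661, plus strand), a mostly cytoplasmic tubulin and histone deacetylase that is abundant in oligodendrocytes, had 9.72, 9.33, 9.41, 9.19 and 9.55 log2 CPM in DG and 7.64, 7.78, 7.68 and 7.60 in SVZ. Every DG library was above every SVZ library, by 3.40-fold (log2 fold change 1.77, SE 0.11, adjusted p = 1.65e-07), and per kilobase of exon Sirt2 was the highest of the chromatin genes in DG, at 139 ± 19.8 CPM in DG and 40.6 ± 2.16 in SVZ (SD, n = 5 and n = 4). Oligodendrocyte lineage markers were higher in DG with it, by the summed levels given above, and their part in this result was not tested. The other 4 higher genes were Hdac11, the only class IV deacetylase, with 4.17 to 4.68 log2 CPM in DG and 3.31 to 3.75 in SVZ (0.90, adjusted p = 0.000292; 15.4% of its exon length overlaps Gm44002 on the other strand), the mitochondrial sirtuins Sirt3 (0.70, adjusted p = 0.000631) and Sirt4 (0.39, adjusted p = 0.033), and Hdac8, which deacetylates cohesin (0.52, adjusted p = 0.0106).

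Hdac1 and Hdac2 are paired class I enzymes of the NuRD, Sin3 and CoREST complexes. Hdac2 had 5.04, 5.70, 5.14, 5.25 and 5.38 log2 CPM in DG and 6.83, 6.57, 6.67 and 6.99 in SVZ, and was 2.75-fold lower in DG (log2 fold change -1.46, SE 0.14, adjusted p = 5.42e-06). Hdac1 had 6.83, 6.78, 6.64, 6.89 and 6.87 in DG and 6.89, 7.07, 6.86 and 6.98 in SVZ, with overlap between the groups, and did not pass (-0.15, SE 0.09, adjusted p = 0.148). Hdac9, a class IIa enzyme (-0.78, adjusted p = 1.47e-05), and Sirt1, a nuclear sirtuin (-0.72, adjusted p = 0.00944), were lower in DG. The small decrease of Hdac3, the catalytic subunit of the NCoR complex (-0.22, adjusted p = 0.0493), was not called without any of DG 1, DG 3, DG 4, DG 5, SVZ 1, SVZ 2 or SVZ 4 (adjusted p 0.0593 to 0.139).

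None of the 7 acetyltransferases was higher in DG and 3 were lower (42.9%, against 33.7% of all genes). Kat6b (ENSMUSG00000021767, chr14:21481434-21672478, plus strand), whose mutants have impaired adult neurogenesis in the mouse SVZ, had 6.28, 6.47, 6.30, 6.32 and 5.86 log2 CPM in DG and 7.69, 7.44, 7.62 and 7.57 in SVZ. The groups did not overlap, and Kat6b was 2.52-fold lower in DG (log2 fold change -1.33, SE 0.12, adjusted p = 2.98e-06), while its paralogue Kat6a differed by -0.82 (adjusted p = 0.00149). The 5 genes listed as bromodomain readers, which bind acetylated histones, were all lower in DG without overlap. Of all genes, 33.7% were lower and 28.3% lay below without overlap. Brd7 and Brd9 were counted with SWI/SNF. Brd9 was lower without overlap (log2 fold change -0.47, limma adjusted p = 0.000368), and Brd7 overlapped and did not pass (-0.29, adjusted p = 0.104). Of the BET proteins, Brd3 differed by -0.95 (adjusted p = 5.63e-06) and Brd2 by -0.76 (adjusted p = 0.000173).

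Of 18 lysine methyltransferases, 14 were lower in DG (77.8%, against 33.7% of all genes), none was higher (against 32.9%) and 4 did not pass. Their median log2 fold change was -0.74. Kmt2a, or MLL1, a lysine 4 methyltransferase needed for the production of neurons in the mouse SVZ, had 5.78, 6.21, 6.42, 6.04 and 5.76 log2 CPM in DG and 7.55, 6.71, 7.09 and 7.63 in SVZ. The tissues did not overlap, the second SVZ library being the lowest of its group, and Kmt2a was 2.30-fold lower in DG (log2 fold change -1.20, SE 0.20, adjusted p = 0.000289). With median-ratio scaling, or without SVZ 4, 1 of the 18 was higher in DG. Setdb1, which methylates lysine 9 (-0.87, adjusted p = 6.13e-06), and Kmt2e, a reader of methylated lysine 4 (-0.80, adjusted p = 0.000136), were also lower.

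Of the 16 lysine demethylases, 13 were lower in DG (81.25%, against 33.7% of all genes) and none was higher (against 32.9%). Kdm6b, or JMJD3, which removes methyl groups from lysine 27 and so opposes PRC2, had 5.91, 6.25, 6.58, 5.88 and 5.63 log2 CPM in DG and 7.10, 7.18, 7.51 and 6.92 in SVZ (log2 fold change -1.13, SE 0.19, adjusted p = 0.000273). The third library of each tissue was the highest of its group, and the groups did not overlap. Kdm7a, a demethylase of lysines 9 and 27 (-1.30, adjusted p = 9.58e-05), and Kdm1a, the CoREST demethylase LSD1 (-1.03, adjusted p = 8.93e-05), were lower too.

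The X-linked demethylases changed least among those named. Kdm6a, or UTX, had 4.94, 5.14, 4.52, 5.12 and 4.89 log2 CPM in DG and 5.67, 5.28, 4.89 and 5.65 in SVZ (log2 fold change -0.45, adjusted p = 0.0494), and Kdm5c, a lysine 4 demethylase, had 6.60, 6.42, 6.19, 6.49 and 6.32 in DG and 7.16, 7.08, 6.78 and 6.36 in SVZ (-0.44, adjusted p = 0.0296). The groups overlapped for both, and Kdm6a was lowest in the third library of each tissue. Xist, the RNA of the inactive X chromosome, was also lowest in those libraries, with 5.01, 5.15, -0.18, 5.22 and 5.57 in DG and 6.34, 5.54, -0.13 and 7.32 in SVZ, while the Y-linked Ddx3y was highest there, with 5.81, 5.49, 7.10, 5.38 and -1.88 in DG and 5.66, 5.16, 6.59 and 5.06 in SVZ. Both RNAs were high in DG 1, DG 2, DG 4, SVZ 1, SVZ 2 and SVZ 4, so these libraries appear to mix sexes. The part of sex in the result was not tested. The call of Kdm6a was lost without any of DG 1, DG 3, DG 5, SVZ 1, SVZ 2 or SVZ 4 (limma adjusted p 0.0678 to 0.142) and that of Kdm5c without any of DG 3, DG 5, SVZ 1 or SVZ 2 (0.0544 to 0.0953).

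Among the 7 arginine methyltransferases, Prmt8 had the largest increase of all 124 genes. Prmt8 (ENSMUSG00000030350, chr6:127689011-127769472, minus strand), a membrane-tethered enzyme found mainly in brain, had 4.75, 4.85, 4.20, 4.75 and 4.89 log2 CPM in DG and 2.18, 1.77, 1.63 and 2.38 in SVZ. All DG libraries were above all SVZ libraries, by 6.50-fold (log2 fold change 2.70, SE 0.20, adjusted p = 7.6e-07). Prmt2, a coactivator of nuclear receptors and per kilobase of exon the highest of the chromatin genes in SVZ, was lower in DG, with 7.84 to 8.34 log2 CPM in DG and 8.91 to 9.17 in SVZ (-0.93, adjusted p = 1.5e-05). The number of enzymes lower in DG, 3 of 7 (42.9%, against 33.7% of all genes), was 1 of 7 without any of DG 1, DG 4, SVZ 1 or SVZ 4. Prmt6, which methylates arginine 2 of histone H3 (-0.54, adjusted p = 0.0452), lost its call without any of DG 1, DG 3, DG 4, DG 5, SVZ 1, SVZ 2 or SVZ 4 (adjusted p 0.0542 to 0.121), and 23.4% of its exon length overlaps C130013H08Rik on the other strand.

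The 6 ARID factors outside SWI/SNF held 2 genes higher and 2 lower in DG, 33.3% each and so near the shares of all genes (32.9% higher and 33.7% lower). Arid5a (ENSMUSG00000037447, chr1:36307733-36324029, plus strand), an RNA-binding protein that stabilises Il6 mRNA in the mouse, had 6.18, 5.69, 5.94, 5.91 and 5.35 log2 CPM in DG and 3.42, 3.29, 3.36 and 2.63 in SVZ. The groups did not overlap, and Arid5a was 6.23-fold higher in DG (log2 fold change 2.64, SE 0.20, adjusted p = 9.11e-07). Arid5b, a partner of the demethylase Phf2, was also higher in DG (0.58, adjusted p = 0.00463). Arid3b, a DNA-binding relative of Arid3a, was lower (-1.59, SE 0.25, adjusted p = 0.00019), and Arid4b, a subunit of the Sin3 corepressor, differed by -0.99 (adjusted p = 0.000666). Astroglial, oligodendrocyte lineage, pericyte, endothelial and fibroblast markers, high in DG as given above, moved with Prmt8 and Arid5a. So did Neurod1 and 4 of the 10 mature neuron markers. The part of all these cells in the result was not tested.

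Whether related genes moved apart was asked with ratios inside each library, which do not depend on library scaling. Of 27 paralogue pairs, 11 differed between DG and SVZ by an exact two-sided permutation test of the mean log2 ratio, adjusted over the 27 pairs (adjusted p under 0.05), and all 11 ratios were without overlap between the tissues. With 5 against 4 libraries the smallest possible exact p is 0.00794, which is 0.0238 after adjustment here, and 9 of the 11 pairs had this value. The ratio of Cbx7 to Cbx2 was 11.4-fold higher in DG (difference 3.51 on the log2 scale), that of Ezh1 to Ezh2 was 6.48-fold higher (2.70) and that of Sirt2 to Sirt1 was 5.59-fold higher (2.48). In each of these pairs the first gene was higher and the second lower in DG, both without overlap. Their ratios were therefore bound to lie apart, and the exact test adds nothing there to the single-gene results. Smaller increases in DG were those of Hdac1 to Hdac2 (1.31), Smarca2 to Smarca4 (1.15), Tet2 to Tet3 (0.92) and Smarca1 to Smarca5 (0.87). The ratio of Arid5b to Arid5a was 4.17-fold lower in DG (-2.06), and Kdm5b to Kdm5a differed by -0.67. The ratios of Chd3 to Chd4 (-0.78) and of Kat6b to Kat6a (-0.51) had an exact p of 0.0159, or 0.039 adjusted, and Chd3 to Chd4 was no longer called without any single SVZ library, nor Kat6b to Kat6a without SVZ 4. Without any single DG library the smallest possible p is 0.0286, 11 to 12 of the 27 ratios were without overlap, the smallest adjusted p was 0.0643 to 0.0701, and 0 were called.

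**Figure D3:**
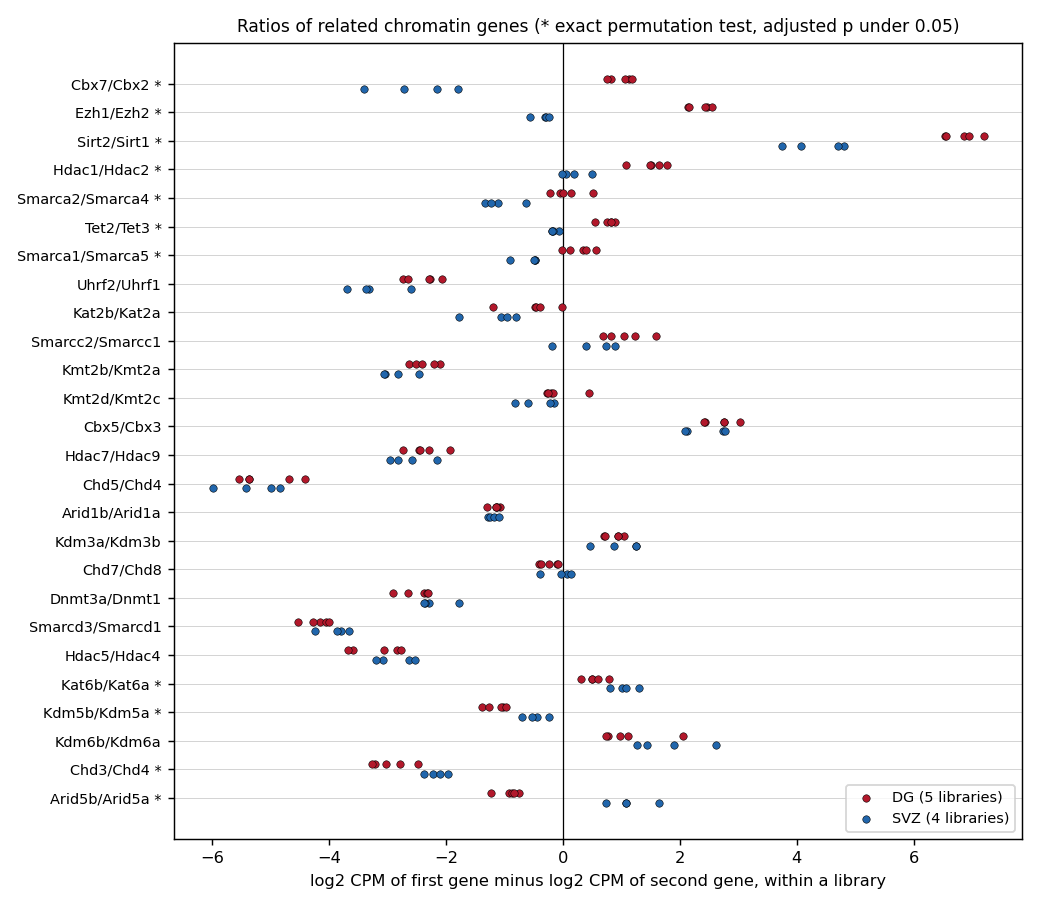
Each row is a pair of related chromatin genes (pairs reported here), with the log2 CPM of the first minus that of the second in each library on the horizontal axis (red, 5 DG libraries; blue, 4 SVZ libraries) and an asterisk where the adjusted exact p was under 0.05. Rows are sorted by DG minus SVZ, from Cbx7/Cbx2 at the top (3.51) to Arid5b/Arid5a at the bottom (-2.06).

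Chromatin genes that the symbol rule does not take were counted from 6 lists of complex partners. Of 97 such genes, 70 were lower in DG (72.2%, against 33.7% of all genes), 5 were higher (5.15%, against 32.9%) and 22 did not pass, with a median log2 fold change of -0.71. All 17 other remodellers and methyl-DNA binding proteins were lower in DG, as were 14 of 17 COMPASS partners and further histone methyltransferases, 13 of 15 p300/CBP and acetyltransferase partners, 9 of 14 SWI/SNF partners, 9 of 18 PRC1 and PRC2 partners and 8 of 16 NuRD and deacetylase corepressors. Bcl11a, a SWI/SNF subunit and transcription factor, was 5.50-fold lower in DG (log2 fold change -2.46, adjusted p = 9.47e-07), Hat1, which acetylates newly made histone H4, was 3.48-fold lower (-1.80, adjusted p = 2.57e-07), and Nsd2, a lysine 36 methyltransferase, differed by -1.69 (adjusted p = 1.03e-06). Actl6a, the BAF53A subunit of dividing precursor cells, differed by -1.01 (adjusted p = 1.85e-06). The SWI/SNF subunit Dpf3, known from heart and neurons, was 3.39-fold higher in DG (1.76, adjusted p = 1.72e-05), and Phf1, a PRC2 accessory protein, was higher as well (1.08, adjusted p = 0.00468). The number higher in DG, 5, was 3 without SVZ 1.

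The chromatin genes also shared a relation to length that the rule did not use. Across the 124 genes, longer annotated exon length went with a more negative log2 fold change (Spearman rho = -0.44, n = 124 genes, which share libraries and are not independent), whereas rho was -0.04 across 14433 genes of the table with a symbol. All 14433 genes were put in a long, a middle or a short class, so these classes reach beyond the ranges given for chromatin genes. Of the 42 longest chromatin genes (9006 to 23148 bases), 37 were lower in DG and 2 were higher, with a median of -0.91. Of the 1901 genes in the long class, 41.8% were lower and 30.3% were higher. Of the 42 shortest chromatin genes (1903 to 5552 bases), 18 were lower and 6 were higher, with a median of -0.25. Of the 9181 genes in the short class, 30.7% were lower and 34.0% were higher. The 40 chromatin genes of middle length held 28 lower and 3 higher genes, with a median of -0.59. Of the 3351 genes in the middle class, 37.1% were lower and 31.8% were higher.

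**Figure D4:**
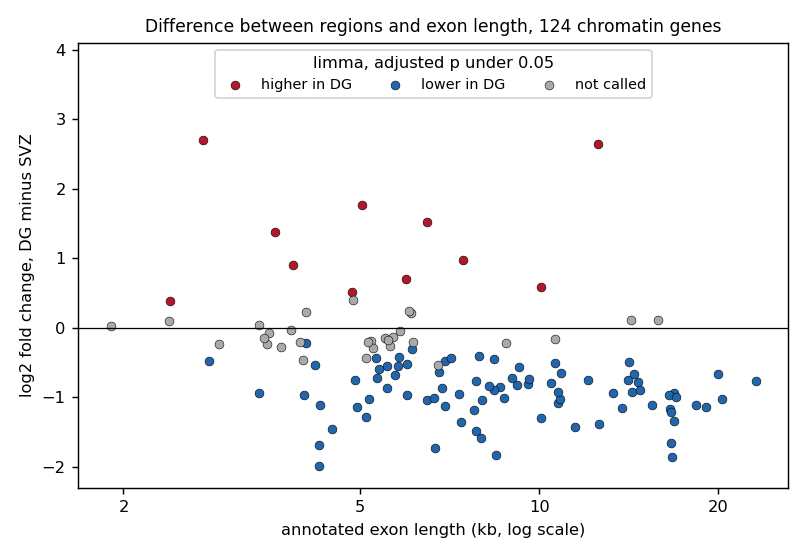
Each point is 1 of the 124 chromatin genes, with annotated exon length in kilobases on a log scale (horizontal axis) and log2 fold change, DG minus SVZ (vertical axis). Points lower in DG (blue) prevail among long genes, 37 of the 42 longest, while the 42 shortest hold 6 of the 11 genes higher in DG (red) and 18 lower.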

How the data were processed

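Per the labels' protocols, cDNA was primed with poly-dT, copied by template switching, amplified, sheared and built into libraries that keep no strand information. STAR, edgeR and mm10 are named in the submitters' processing notes; for the gene counter, annotation and filter nothing is stated there. The deposited table is called counts, but the values deposited by the authors are log2 CPM with a prior of 1 read scaled to each library, as read from the values: the formula returned whole reads for 100% of values (tolerance 0.001). Every gene exceeded 1 CPM in at least 3 libraries. Fold changes on this scale understate the change of genes with few reads.

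From these values limma (version 3.58.1 under R 4.3.3, variance trended on the mean, tissue as the only term) tested DG minus SVZ over all 14477 genes, with a call at a Benjamini-Hochberg adjusted p under 0.05; all adjusted p-values of genes come from limma. The fit was tested on simulated reads in which few genes changed and every gene had the same variability setting. In these data 66.6% of genes were called, so that test does not vouch for the calls reported here. The design foresaw a count test for raw counts and limma for log2 values. Symbols, 1-based coordinates and exon lengths come from GENCODE M21. CPM per kilobase divides CPM by exon length.

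The 124 genes, the lists of partners and markers and the 27 pairs were chosen with earlier results of these data known. Named genes are up to 12 of the largest called changes in each direction without overlap and with mean log2 CPM of 3 or more, up to 2 per role and direction by smallest adjusted p, and 20 chosen genes whatever their result, 50 in all, of which some are not reported here; of other chromatin genes, up to 2 per list and direction. The alternatives were median-ratio scaling, limma-voom on recovered reads, a prior of 5 reads, a minimum mean of 3 log2 CPM, a replicate block and leaving out each library. PCR copies were not tagged, and no library was left out of the values reported.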

Additional observations from a re-analysis of the deposited data

Results flagged for a closer look

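In 11 of the 158 sets of DG or SVZ libraries examined, counting named genes and paralogue ratios, 1 library stood apart from its group by Dixon's criterion, which chance meets in about 1 of 20 sets. Among genes higher in DG, Prmt8 was lowest in DG 3 (4.20 log2 CPM, others 4.75 to 4.89), Ezh1 was highest in DG 3 (7.24, others 6.88 to 6.97), Arid5b was lowest in DG 5 (4.52, others 4.94 to 5.04), Arid5a was lowest in SVZ 4 (2.63, others 3.29 to 3.42) and Sirt3 was lowest in SVZ 1 (4.58, others 4.96 to 5.01). Among genes lower in DG, Cbx1 was highest in SVZ 4 (7.87, others 7.52 to 7.56) and Setdb1 was highest in SVZ 1 (7.11, others 6.95 to 6.97). Among log2 ratios, Kdm6b to Kdm6a stood at 2.06 in DG 3 (others 0.74 to 1.11), Kmt2d to Kmt2c at 0.45 in DG 3 (others -0.27 to -0.18), Smarca1 to Smarca5 at -0.90 in SVZ 4 (others -0.50 to -0.48) and Dnmt3a to Dnmt1 at -1.77 in SVZ 4 (others -2.38 to -2.29). DG 3, with 4 of these values, is the DG library with the lowest Xist and highest Ddx3y, the highest summed mature neuron markers (925 CPM, others 219 to 280) and the highest summed endothelial markers (2314 CPM, others 1202 to 1573), and their part was not tested.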

How the results depend on the processing

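The numbers of chromatin genes higher and lower in DG, 11 and 83, were 12 and 77 with median-ratio scaling, 11 and 83 with limma-voom, 11 and 83 with a prior of 5 reads and 10 and 74 of 108 genes with mean log2 CPM of 3 or more. With the replicate block, over 8 libraries, they were 11 and 75; over all genes the deviations of same-numbered DG and SVZ libraries correlated at -0.17 to 0.00727 in the 4 pairs, so the numbers were not taken as pairs, although the third libraries share low Xist and high Ddx3y. Leaving out each library gave 10 to 12 higher and 73 to 80 lower. Of other chromatin genes, 5 higher became 3 with the minimum mean and 3 with the replicate block, and 3 to 6 with a library left out. Called ratios, 11, were 9 of 23 with the minimum mean and 0 to 11 with a library left out (0 without any DG library). Lower arginine methyltransferases, 3, were 1 with median-ratio scaling, the minimum mean or the replicate block, and higher Polycomb genes, 2, were 1 with the minimum mean. Signs turned for 2 uncalled values: Kdm3a/Kdm3b, -0.09, was 0.0103 without SVZ 2 and 0.0140 without SVZ 3 (-0.25 to 0.0140 with a library left out), and Eed, -0.03, was 0.0102 with median-ratio scaling, 0.0252 without DG 1 and 0.0621 without SVZ 4 (-0.12 to 0.0621 with a library left out). The cause was not tested. Of the 50 genes named by the rule, 4 lost a call under any alternative (Hdac3, Kdm5c, Kdm6a and Prmt6), and none changed sign.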

Other observations

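Within each tissue, single libraries were often lowest or highest over the 124 chromatin genes. DG 5 was the lowest DG library for 70 of them (56.5%, against 31.6% of all genes) and DG 2 the highest for 52 (41.9%, against 21.6%). In SVZ, SVZ 4 was the highest library for 64 (51.6%, against 36.0%) and SVZ 2 the lowest for 51 (41.1%, against 24.2%). DG 5 also had the lowest Ddx3y of the 9 libraries, -1.88 log2 CPM, and DG 2 the highest summed neuroblast markers of the DG libraries, 9162 CPM. The first principal component of the 124 genes held 82.7% of their variance and separated the tissues, with scores of 3.34 to 6.47 in DG and -6.81 to -4.76 in SVZ.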
